A study of Mus musculus with 8 samples.

Results

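miR-103 and miR-107 are a pair of nearly identical microRNAs (miRNAs), each read by 1 assay of a real-time PCR card run on mouse liver RNA. The members were taken by name, as the assays for miR-103 and for miR-107, and both of the 2 were found among the 381 assays on the card. The samples were whole livers of female C57B6 mice, aged 4 weeks when the study began. The 4 groups were untreated mice and mice given carbon tetrachloride (CCl4), a solvent that injures hepatocytes and scars the liver, by repeated intraperitoneal injection for 1, 4 or 8 weeks. The labels give the dose as 1 mg/kg and the study's methods give it in ml/kg with corn oil as carrier. The untreated mice were labelled only as not treated, so the CCl4 groups differ from them by the injections and the carrier as well as by CCl4. The labels give age only at the start, so age at harvest may differ between groups too. Time on CCl4 and age cannot be told apart here. The labels name no transgene or mutant allele in any group. Each group had 2 cards, labelled replicates 1 and 2, and the labels do not say whether these were separate mice. The series' design text gives numbers of mice per CCl4 group that are not all 2, and which mice a card stands for is not given in the sources used here, so the p-values measure the spread between these cards, which may be technical.

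miRNAs are short RNAs that guide a silencing complex to messenger RNAs, mainly through the seed, bases 2 to 8 counted from the 5′ end. miR-103 and miR-107 are encoded inside genes for pantothenate kinases, the enzymes that start the synthesis of coenzyme A, on which fatty acid metabolism depends. In liver and fat they are known as regulators of insulin sensitivity, with the caveolin-1 messenger RNA among their targets. miR-103 is also in wide use as a reference against which other miRNAs are scaled in PCR experiments. Whether the pair moves during CCl4 injury, and whether its members move alike, is the question these cards can address.

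The mature sequences are shown because the pair differs so little that reading them apart is a matter of a single base. They are from RefSeq on the GRCm38.p6 build, written 5′ to 3′ with the seed in capitals.

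miR-103: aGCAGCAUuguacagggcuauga

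miR-107: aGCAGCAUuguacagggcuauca

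Both have 23 bases, of which 22 are identical, and the seed is the same. The difference is G22C, with miR-103 given first and positions counted from 1 at the 5′ end, which places it 2 bases from the 3′ end when the last base counts as 1. miR-103 has 2 genes with the same mature sequence, Mir103-1 inside Pank3 at chr11:35782447-35782469 on the plus strand and Mir103-2 inside Pank2 at chr2:131288103-131288125 on the plus strand. A single assay cannot assign its signal to either of them. miR-107 has 1 gene, Mir107, inside Pank1 at chr19:34820700-34820722 on the minus strand. The card's assay names carry no arm, and the match here was by name to the 3p arm. Whether either assay also reads the other miRNA was not tested. Of 1679 mature mouse miRNA names in the RefSeq table, 2 (0.119%) have the seed GCAGCAU, and these are the pair itself.

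The measured quantity was the threshold cycle (Ct), the PCR cycle at which an assay's fluorescence crosses its threshold, so that 1 cycle more means about 2-fold less template. Both members were determined on all 8 cards. For comparison, 168 of the 381 assays had a Ct on every card, 102 had none on any card, and 193 to 235 assays were determined per card. Each Ct was subtracted from its card's mean Ct over the 149 assays below cycle 35 on every card, which gives a centred value on the log2 scale that is higher where there is more of the miRNA. The card means ran from 27.48 to 29.77, the highest being that of the 4 weeks replicate 2 card. Tests were made with limma over 166 assays, those with a Ct on all 8 cards that averaged under cycle 35, and both members are among them. Where a card was left out, its group kept 1 card, and the spread in that fit came from the other groups. The hepatocyte miRNAs miR-122, miR-192, miR-194, miR-148a and miR-802 had mean Ct values of 22.85, 22.59, 25.09, 27.01 and 30.86. The median assay had 29.15. No other tissue was compared, so these values alone do not identify the tissue. In whole liver, fewer cells of a type and less RNA per cell cannot be told apart.

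miR-107 fell under CCl4. Its level was lower than in untreated liver at 1 week and at 4 weeks, with log2 differences of -1.52 and -2.61, the latter a level 6.11-fold below untreated. That fold was read at the late cycles 32.72 and 34.00. The 1-week call was lost without 3 of the 8 cards, with -0.85 when 1-week replicate 2 was left out, and under 3 of the 11 other settings. At 8 weeks its value was -1.23, which did not pass the test. miR-103, which shares all but 1 of its bases, lay below untreated liver by 0.48 to 0.91 on the log2 scale and did not pass the test at any of the 3 times, and the sign of its value turned at some times with U6, miR-191 or snoRNA202 as the sole reference. Such a reference shifts all assays of a card alike, so by arithmetic values relative to the median of all assays hardly change with it and test nothing. With the centring used here, miR-103 lay at -0.82, -0.90 and -0.44 relative to that median at 1, 4 and 8 weeks.

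In untreated liver the miR-107 assay crossed its threshold at cycles 29.99 and 29.82. After 1 week of CCl4 it did so at cycles 31.35 and 32.53. After 4 weeks the values were 32.72 and 34.00, and after 8 weeks 30.60 and 31.70. All 6 CCl4 cards thus needed more cycles than both untreated cards before any scaling.

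Centring left the order of groups as it was. The centred log2 values of miR-107 were -1.64 and -1.83 on the untreated cards. The 1-week cards had -2.58 and -3.93, the 4-week cards -4.47 and -4.23, and the 8-week cards -3.12 and -2.82. All 6 CCl4 cards were below both untreated cards, which 27 of the 166 assays (16.3%) also showed. As a percentage of the untreated mean, the 2 cards of a group gave 38.6% ± 23.8 (SD, n = 2) at 1 week, 16.4% ± 1.93 (SD, n = 2) at 4 weeks and 42.7% ± 6.15 (SD, n = 2) at 8 weeks, beside 100% ± 8.99 (SD, n = 2) in untreated liver. The 1-week cards stood far apart, at 55.4% and 21.8%, whereas those of 4 weeks lay at 15.0% and 17.8%.

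For 4 weeks against untreated, the log2 difference of miR-107 was -2.61 (SE 0.44, 95% confidence interval -3.65 to -1.57, limma adjusted p = 0.00579), which is 6.11-fold lower with an interval of 2.97 to 12.5. Lower calls at this time numbered 28 of 166 assays (16.9%), and miR-107 ranked 4 from the lowest. For 1 week the difference was -1.52 (SE 0.44, interval -2.56 to -0.48, limma adjusted p = 0.0338), with 24 assays (14.5%) called lower and miR-107 at rank 15. For 8 weeks it was -1.23 (interval -2.27 to -0.19, limma adjusted p = 0.160), at rank 8, where just 1 assay (0.602%) was called lower. The median assay had -0.09, 0.03 and -0.04 for 1, 4 and 8 weeks.

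The call at 4 weeks was kept without each of the 8 cards in turn, with values from -2.73 to -2.49 and limma adjusted p between 0.00439 and 0.0365. The call at 1 week was not: it was lost without 1-week replicate 2 (-0.85, adjusted p = 0.177), without untreated replicate 1 (-1.43, adjusted p = 0.165) and without untreated replicate 2 (-1.61, adjusted p = 0.0902), and also under quantile normalization (-1.70, adjusted p = 0.0595), with no normalization (-2.03, adjusted p = 0.179) and with undetermined values set to cycle 40 (-1.52, adjusted p = 0.066).

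**Figure D1:**
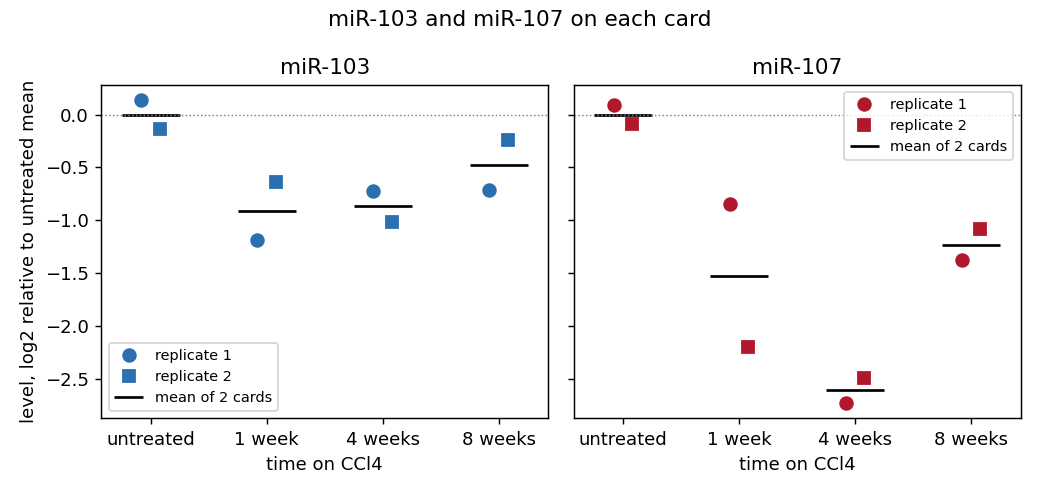
Centred level of miR-103 (left) and miR-107 (right) on each of the 8 cards, on the log2 scale relative to the untreated mean, by time on CCl4. Circles are replicate 1, squares replicate 2 and bars the mean of the 2 cards; miR-107 lies between -2.73 and -2.49 at 4 weeks, and all 6 CCl4 cards of each miRNA lie below both untreated cards.

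miR-103 crossed its threshold at cycles 28.27 and 28.19 in untreated liver and at 30.01 and 29.30 after 1 week. At 4 weeks the cycles were 29.04 and 30.85, and at 8 weeks 28.26 and 29.18. The raw Ct of 8 weeks replicate 1 thus lay between those of the untreated cards, and that card also had the lowest mean Ct, 27.48. Centring gave 0.08 and -0.20 for the untreated cards, -1.25 and -0.70 for the 1-week cards, -0.79 and -1.08 for the 4-week cards and -0.78 and -0.30 for the 8-week cards. All 6 CCl4 cards were below both untreated cards (16.3% of assays), and 8 weeks replicate 2 came closest to them.

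As a percentage of the untreated mean (100% ± 13.4, SD, n = 2), miR-103 stood at 53.8% ± 14.1 (SD, n = 2) at 1 week, 54.7% ± 7.75 (SD, n = 2) at 4 weeks and 72.5% ± 16.7 (SD, n = 2) at 8 weeks. The log2 difference at 1 week was -0.91 (SE 0.33, interval -1.69 to -0.14, limma adjusted p = 0.0682). At 4 weeks it was -0.87 (interval -1.64 to -0.10, limma adjusted p = 0.0835). At 8 weeks it was -0.48 (interval -1.25 to 0.30, limma adjusted p = 0.359). The intervals at 1 and 4 weeks leave out 0 before adjustment over the 166 assays, and the values miss the threshold after it. miR-103 ranked 37, 42 and 49 from the lowest at 1, 4 and 8 weeks, well inside the bulk of the assays. Quantile normalization brought miR-103 past the threshold at 1 week (-1.02, adjusted p = 0.0338) and at 4 weeks (-1.02, adjusted p = 0.0361). Scaling to the card's 3 endogenous controls (U6, snoRNA135 and snoRNA202) moved it both ways. It lay further from untreated at 1 week (-1.15, adjusted p = 0.0714). It lay closer at 4 weeks (-0.23, adjusted p = 0.670) and at 8 weeks (-0.02, adjusted p = 0.983). Without 8 weeks replicate 1 the 8-week value was -0.24.

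**Figure D2:**
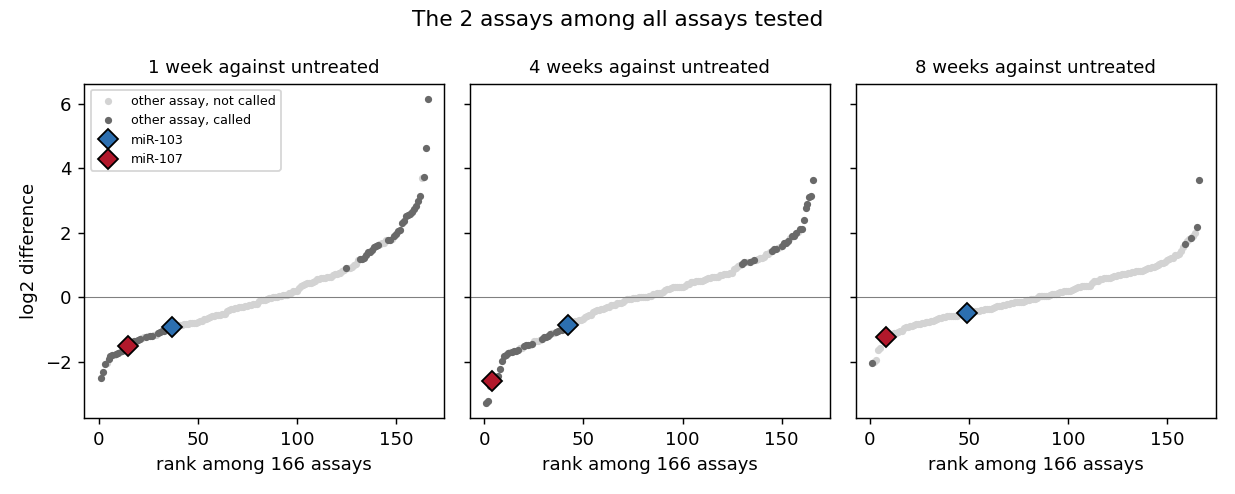
All 166 tested assays in order of their log2 difference from untreated liver at 1, 4 and 8 weeks, with dark dots for assays whose adjusted p was below 0.05. miR-107 (red) ranked 15, 4 and 8 from the lowest and miR-103 (blue) 37, 42 and 49.

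For the mean of the 3 CCl4 groups against untreated, miR-107 had a log2 difference of -1.79 (SE 0.36, interval -2.64 to -0.94, limma adjusted p = 0.0137) and ranked 4 from the lowest, with 27 of 166 assays (16.3%) called lower. That of miR-103 was -0.75 (SE 0.27, interval -1.38 to -0.12, limma adjusted p = 0.0766), and -0.46 with the endogenous controls (adjusted p = 0.391). The exact two-sided permutation test of 6 against 2 cards gave both members p = 0.0357, the smallest that the 28 splits can give. It follows from all 6 CCl4 cards lying below both untreated cards, as they did for 27 of the 166 assays (16.3%), and adds nothing to that count. Without untreated replicate 1 or 2 the limma call of miR-107 was lost, at -1.70 (adjusted p = 0.110) and -1.88 (adjusted p = 0.0797). In limma's F test for any difference over the 4 groups, where 90 assays (54.2%) were called, miR-107 passed (F = 11.6, adjusted p = 0.0153) and miR-103 did not (F = 3.29, adjusted p = 0.114).

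Among the CCl4 groups themselves, the order of miR-107 levels from high to low was untreated, 8 weeks, 1 week and 4 weeks, and no neighbouring CCl4 groups differed by the test. From 1 to 4 weeks the log2 difference was -1.09 (limma adjusted p = 0.0829), in a comparison where 78 assays (47.0%) were called. It passed without 1-week replicate 2 (-1.76, adjusted p = 0.0330), and without 1-week replicate 1 the value was -0.41. Between 8 weeks and 4 weeks the difference was 1.38 (interval 0.34 to 2.42, limma adjusted p = 0.188), with 2 assays (1.20%) called, and between 8 weeks and 1 week it was 0.29 (limma adjusted p = 0.628), with 40 assays (24.1%) called. Without 1-week replicate 2 the sign of this last value turned (-0.38), and without 1-week replicate 1 it was 0.96.

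For miR-103 the order was untreated, 8 weeks, 4 weeks and 1 week. The log2 difference was 0.04 from 1 to 4 weeks (limma adjusted p = 0.940), 0.44 from 1 to 8 weeks (adjusted p = 0.346) and 0.39 from 4 to 8 weeks (adjusted p = 0.545). None of these steps exceeded the spread between cards by the test, and the sign of the first turned without 1-week replicate 1 (-0.23) or 4 weeks replicate 1 (-0.10). Without 1-week replicate 1 the second was 0.16 and without 8 weeks replicate 2 it was 0.20, and without 8 weeks replicate 2 the third was 0.15.

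**Figure D3:**
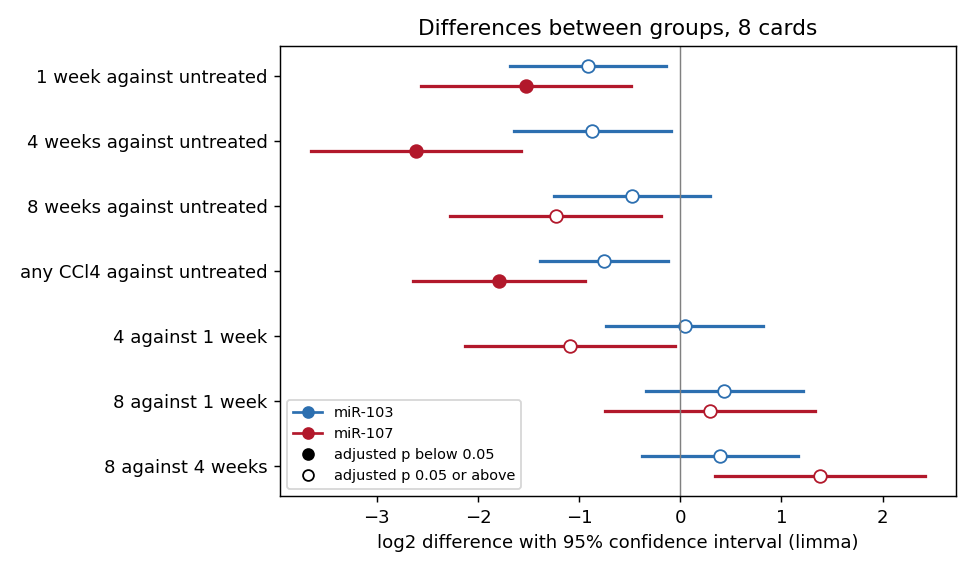
Log2 differences of miR-103 (blue) and miR-107 (red) in the 7 comparisons, with 95% confidence intervals from limma. Filled points have an adjusted p below 0.05, and these are miR-107 at 1 week, at 4 weeks and over the CCl4 groups together.

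That miR-107 passed and miR-103 did not is no test of a difference between them, and the cards allow a direct one. Subtracting the Ct of miR-107 from that of miR-103 on the same card gives the level of miR-107 relative to miR-103 in cycles, and a shift common to all assays of a card cannot alter it. The untreated cards gave -1.72 and -1.63, the 1-week cards -1.34 and -3.23, the 4-week cards -3.68 and -3.15, and the 8-week cards -2.34 and -2.52. Both cards of 4 weeks and of 8 weeks were below both untreated cards, whereas 1-week replicate 1 was above them.

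The mean over the 6 CCl4 cards was -2.71 ± 0.83 (SD, n = 6) and over the 2 untreated cards -1.68 ± 0.06 (SD, n = 2), a difference of -1.04 cycles with p = 0.179 in the exact two-sided permutation test. A larger fall of miR-107 than of miR-103 was therefore not shown over the CCl4 cards as a whole. Leaving out each of the 8 cards in turn gave -1.31 to -0.84. Without an untreated card only 1 card is left on that side, so no p is given for those splits. The lowest exact p, 0.0476, came without 1-week replicate 1, the card that lay above the untreated ones. It is the value that any full separation of the remaining cards gives. The shifts from untreated were -0.61 at 1 week, -1.74 at 4 weeks and -0.76 at 8 weeks, and no test of these single times was made.

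**Figure D4:**
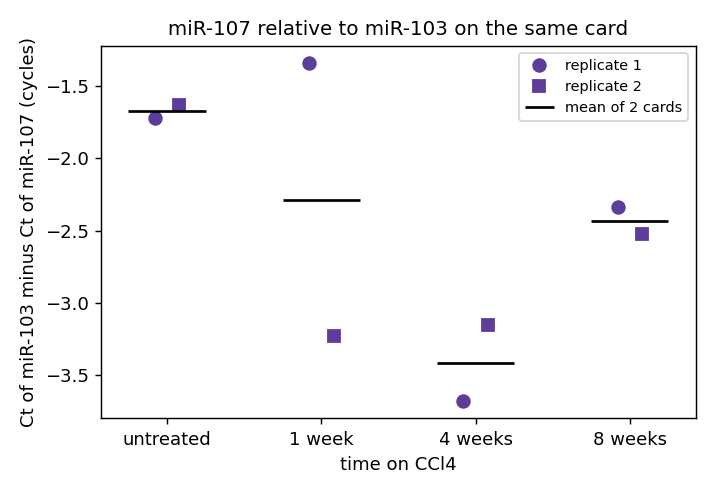
Level of miR-107 relative to miR-103 on the same card, as the Ct of miR-103 minus the Ct of miR-107 in cycles, by time on CCl4. Circles are replicate 1, squares replicate 2 and bars the mean of the 2 cards; the 1-week cards are the most widely spread, at -1.34 and -3.23.

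miR-103 is used as a PCR reference, so its spread over the 8 cards was set beside that of other candidates. The SD of its centred value was 0.45, at rank 29 of 166 from the smallest, and the median assay had 0.72. That of miR-107 was 1.06, at rank 133. snoRNA135, a small nucleolar RNA, had 0.21 and ranked 2, whereas snoRNA202 had 0.60 at rank 59. miR-191 had 0.96 at rank 117, miR-16 had 1.13 at rank 138, and the spliceosomal RNA U6 had 1.66 at rank 161. Centred instead on the mean of every determined assay of a card, miR-103 had 0.66 at rank 58 and miR-107 1.16 at rank 134. Under both centrings miR-103 varied less over these cards than most assays, while its main centred values on all 6 CCl4 cards lay below those of untreated liver.

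These candidates carry the pair's values with them when a single RNA is the reference. U6 itself differed from untreated by 2.38, -1.50 and -1.11 at 1, 4 and 8 weeks, miR-191 by 1.47, -0.82 and -0.49, snoRNA135 by -0.27, -0.03 and -0.06, and snoRNA202 by -1.39, -0.39 and -0.21. With snoRNA135 as the sole reference the difference of miR-107 at 4 weeks still passed, at -2.58, and with U6 alone it did not, at -1.10 (adjusted p = 0.184). The sign of miR-103 turned with U6 alone at 4 and 8 weeks (0.64 at both), with miR-191 alone at 8 weeks (0.01) and with snoRNA202 alone at 1 week (0.48). A scaling that shifts a whole card by 1 amount moves all assays alike, so relative to the median of all assays miR-107 at 4 weeks stayed by arithmetic at -2.64 and miR-103 at -0.90, and quantile normalization, the setting that can differ, gave -3.00 and -0.99. The median of all assays at 1, 4 and 8 weeks was -2.48, 1.53 and 1.09 with U6, 1.31, 0.42 and 0.19 with snoRNA202, -1.56, 0.85 and 0.47 with miR-191, -0.33, 0.67 and 0.42 with the endogenous controls, and -0.60, -0.82 and -0.05 unscaled.

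The split of calls over all assays moved with the reference as well. At 1 week 30 were called higher and 24 lower as reported, 2 and 124 with U6, 7 and 99 with miR-191, 81 and 0 with snoRNA202, 34 and 8 with snoRNA135, and 18 and 33 with the mean of every determined assay. At 4 weeks the 22 higher and 28 lower became 80 and 2 with U6, 43 and 8 with miR-191, 33 and 10 with snoRNA202, 45 and 11 with the 3 endogenous controls, 12 and 27 with the mean of every determined assay, and 14 and 32 with the card median. For 4 against 1 week the 36 higher and 42 lower became 72 and 20 with the endogenous controls, 150 and 0 with U6 and 8 and 73 with snoRNA202. Shares of assays called higher or lower therefore hold for the centring used here.

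Next come the miRNAs whose seeds overlap with that of the pair by a shift of 1 base, the miR-15 and miR-16 family, known to restrain the cell cycle. They are shown because the run AGCAGC opens both groups, starting at base 1 in the pair and at base 2 in the family. Bases 2 to 8 are in capitals.

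miR-15a: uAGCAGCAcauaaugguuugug

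miR-15b: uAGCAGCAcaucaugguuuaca

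miR-16: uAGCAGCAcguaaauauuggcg

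miR-195: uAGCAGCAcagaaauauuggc

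miR-322: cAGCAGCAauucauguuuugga

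miR-497: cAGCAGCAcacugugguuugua

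miR-503: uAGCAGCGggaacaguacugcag

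The sequences are the 5p arms of RefSeq, those of Mir195a and Mir497 in the case of miR-195 and miR-497. Of the 1679 mature mouse names, 13 (0.774%) hold AGCAGC within bases 1 to 7, read on the mature strand only.

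All 7 related assays were tested, and they did not move as 1 group. The calls numbered 0 higher and 1 lower for 1 week, 2 higher and 1 lower for 4 weeks, and 0 in either direction for 8 weeks. Over all assays 18.1% and 14.5% were called higher and lower for 1 week, 13.3% and 16.9% for 4 weeks, and 2.41% and 0.602% for 8 weeks. Their median log2 differences were 0.40, 0.33 and -0.14, beside medians of -0.09, 0.03 and -0.04 over all assays.

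miR-15b rose at 4 weeks, with centred log2 values relative to the untreated mean of 2.20 and 2.60 and a limma difference of 2.40 (adjusted p = 0.00868). This is opposite in sign to miR-107 at the same time. The call was lost without untreated replicate 2 (1.88, adjusted p = 0.0542) and under 1 of the 11 other settings. miR-497 rose too, by 1.48 (limma adjusted p = 0.0142), and its call was lost without untreated replicate 1 (1.66, adjusted p = 0.0512), untreated replicate 2 (1.30, adjusted p = 0.0871) or 4 weeks replicate 2 (1.30, adjusted p = 0.0752). It held under 8 of the 11 other settings, with values down to 0.64 (adjusted p = 0.739).

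miR-16 fell at 4 weeks by 1.66 on the log2 scale (limma adjusted p = 0.0426), a call that held without 3 of the 8 cards left out in turn and under 5 of the 11 other settings. It was lost without untreated replicate 1 (-2.15), untreated replicate 2 (-1.17), 1-week replicate 1 or 2 (-1.66 in both cases) and 4 weeks replicate 2 (-1.30). Over the 11 other settings the 4-week value of miR-16 ran from -2.505 to -0.63, with limma adjusted p up to 0.399. miR-15a fell at 1 week by 1.60 (limma adjusted p = 0.0308). That call was lost without either 1-week card (-1.91 without replicate 1, -1.29 without replicate 2) or either untreated card (-1.62 without replicate 1, -1.58 without replicate 2), and it held under 8 of the 11 other settings (adjusted p up to 0.176). At 4 weeks, where miR-15a had -1.10, it passed without 4 weeks replicate 1 (-1.72, adjusted p = 0.0270). miR-195, miR-322 and miR-503 had values from -0.64 to 0.76 over the 3 times and were not called at any.

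**Figure D5:**
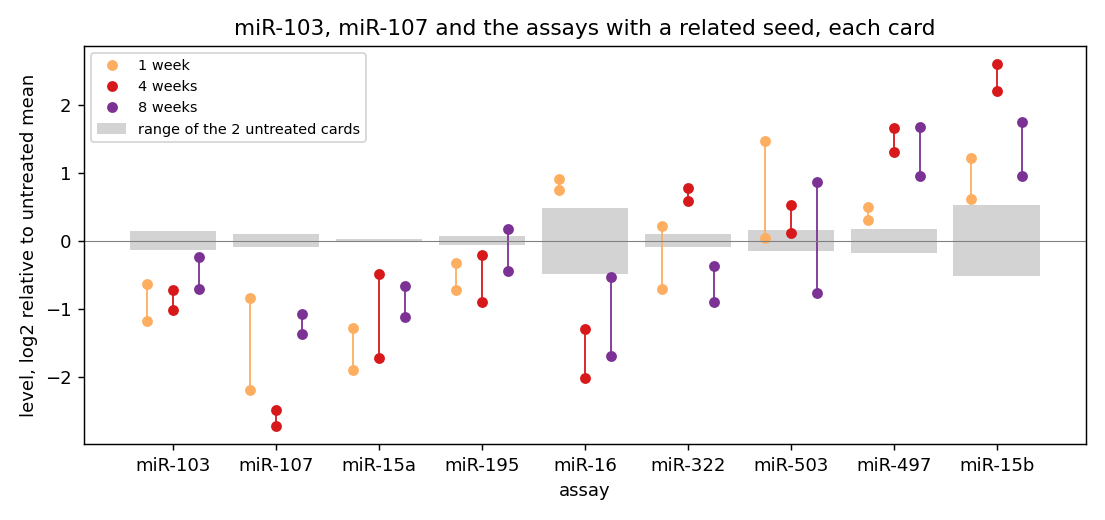
Centred level of miR-103, miR-107 and the 7 assays with a related seed on each CCl4 card, on the log2 scale relative to the untreated mean, with the 2 cards of a group joined by a line. Grey bands span the 2 untreated cards; miR-107 lies lowest at 4 weeks (-2.73 and -2.49) and miR-15b highest (2.20 and 2.60).

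The assays whose centred values ran most like those of each member over the 8 cards were then listed by Pearson's r, as a description. The cards share the centring and fall into the 4 groups, so such r values reflect the group means to a large degree. For miR-107 these were miR-148a (r = 0.952), miR-29a (0.930), miR-802 (0.914), miR-185 (0.896) and miR-30b (0.864). At 4 weeks they differed from untreated by -1.50, -1.21, -3.29, -1.68 and -1.16 on the log2 scale. These values follow in part from the choice, which was made on the same cards, so they are given as a description.

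For miR-103 they were let-7f (r = 0.933), the rat-named assay rno-miR-345-3p (0.930), miR-365 (0.929), miR-26b (0.850) and miR-26a (0.839). Their 4-week log2 differences were -1.03, -2.44, -1.46, -1.28 and -1.01. These too are a description of assays chosen on the same cards. The 2 members were not in each other's lists: between them r was 0.636, at rank 21 among the 165 other assays for miR-103 and rank 27 for miR-107.

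The pair is known for metabolic roles, so it was read beside a list of 20 miRNAs known for roles in lipid, glucose or insulin biology. Of these, 18 were on the card and 16 were tested. The list was chosen with earlier results of these data known. It holds miR-148a, miR-29a, miR-802 and miR-185, given above as most like miR-107, and miR-26a, given as most like miR-103. Its counts and medians may therefore follow in part from the choice. miR-370 and miR-96 were determined on 3 cards, and miR-33 and miR-378, which lie within the genes for the sterol regulators SREBP and the coactivator PGC-1 beta, were not matched by name. The calls numbered 3 higher and 5 lower for 1 week, 2 higher and 8 lower for 4 weeks, and 1 in each direction for 8 weeks, beside shares over all assays of 18.1% and 14.5%, 13.3% and 16.9%, and 2.41% and 0.602%. The 1-week calls became 1 higher and 1 lower without untreated replicate 1, 3 and 3 without untreated replicate 2, 1 and 3 without 1-week replicate 1, and 2 and 2 without 1-week replicate 2. The 8-week calls were miR-34a (1.66) and miR-802 (-2.04), and both were lost without either untreated card or either 8-week card, that of miR-34a also without either 1-week card (1.52 to 1.81 and -2.16 to -1.91). The median log2 differences were -0.62, -0.95 and -0.48, beside -0.09, 0.03 and -0.04 for all assays.

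The list's falls at 4 weeks were led by miR-802, a miRNA known to impair glucose tolerance, at -3.29, ahead of miR-107. miR-29c (-2.00), miR-30c (-1.70), miR-185 (-1.68) and miR-148a (-1.50) followed, and the latter is known to lower the low-density lipoprotein receptor. miR-29a (-1.21), miR-27b (-1.09) and miR-26a (-1.01) were also lower. Calls were lost without either untreated card or either 4-week card for miR-27b (-1.25 to -0.93) and miR-26a (-1.04 to -0.97), and without untreated replicate 1 (-0.99) or 4 weeks replicate 2 (-1.22) for miR-29a. The higher ones were miR-223 (2.77), abundant in neutrophils, and miR-34a (1.44), a target of p53, whose call was lost without untreated replicate 1 (1.48, adjusted p = 0.0515) or 2 (1.40, adjusted p = 0.0621). The number called lower went from 8 to 5 without untreated replicate 1 or without 4 weeks replicate 2, and to 2 when scaled to the card's 3 endogenous controls or not scaled at all.

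Markers of the liver's cell types were read on the same cards, where the shares of all assays called lower were 14.5%, 16.9% and 0.602% for 1, 4 and 8 weeks and those called higher 18.1%, 13.3% and 2.41%. Of the 5 hepatocyte miRNAs, 4 were called lower for 4 weeks (3 to 4 under the 11 other settings, and 4 without each card in turn) and 1 each for 1 and 8 weeks, with 0 called higher. The 8-week count was 0 without either untreated card or either 8-week card and under 4 of the 11 other settings, and the 1-week count was 0 with no normalization and 1 without each card in turn. Sums of levels, here and in the next paragraph, are on the linear scale and lean to the assays with the earliest Ct. For the hepatocyte list these are miR-192, with log2 differences of -0.58, -2.76 and -1.18 at 1, 4 and 8 weeks, and miR-122. The summed level of the 5 hepatocyte miRNAs as a percentage of untreated ran from 57.5 to 59.3 on the 1-week cards. It ran from 34.0 to 38.2 on the 4-week cards and from 59.2 to 69.4 on the 8-week cards, where the untreated cards had 98.2 and 101.8. The 4-week cards were thus lowest, which was also so for miR-107 and for the endothelial assays given below. miR-122, the most hepatocyte-restricted of the hepatocyte miRNAs, had -1.20, -0.23 and 0.09 and no call. Its 4-week sign turned without 4 weeks replicate 1 (0.09) or untreated replicate 1 (0.17), and its 8-week sign without 8 weeks replicate 2 (-0.48) or untreated replicate 2 (-0.31). miR-148a and miR-802 stand both in this list and among the assays most like miR-107.

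Of the 6 leukocyte miRNAs, 5 were called higher for 1 week, 4 for 4 weeks and 0 for 8 weeks (0 to 5 for 1 and for 4 weeks under the 11 other settings). Without 1-week replicate 2 the 1-week count was 2 and without untreated replicate 1 it was 3. The 4-week count was 2 without untreated replicate 2 and 3 without any other card. Their summed level was 335 to 357% of untreated on the 1-week cards, 278 to 377% on the 4-week cards and 139 to 198% on the 8-week cards, where the untreated cards had 74.5 and 125.5%. Of the 4 mesenchymal miRNAs tested, 2 were higher for 4 weeks, and the summed level was 124 to 168% on those cards, 98.9 to 105.7% on the 1-week cards and 93.6 to 116.6% on the 8-week cards, where the untreated cards had 94.1 and 105.9%. That count of 2 was 0 without untreated replicate 2, 1 without any other card, and 0 to 2 under the 11 other settings. Both endothelial assays, the arms of miR-126, were lower for 4 weeks, and their summed level was 21.2 to 36.9% on those cards, 146 to 153% on the 1-week cards and 39.2 to 69.9% on the 8-week cards, where the untreated cards had 82.8 and 117%. Of those 2 calls, 0 were left without untreated replicate 2 or 4 weeks replicate 2, 1 without untreated replicate 1 or either 1-week card, and 0 to 2 under the 11 other settings. None of the marker assays was at 0 on any card. The part of these markers in the values of miR-103 and miR-107 was not tested.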

How the data were processed

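The deposited values, unit other (Ct, an inverted log2 scale), were raw threshold cycles that the authors obtained from whole-liver RNA reverse transcribed without pre-amplification and run on TaqMan rodent miRNA cards, 1 card per sample, with 1 column of values per card. The software that set the thresholds was not given in the sources used here. A deposited table of the authors' fold changes to untreated was not used. Values were centred on the mean Ct of 149 assays below 35 on every card, and 166 assays were fitted in limma 3.58.1 (R 4.3.3) with all 8 cards in 1 model, with p-values adjusted by Benjamini-Hochberg within each comparison and a threshold of 0.05. The study's methods name REST software for comparing qPCR data, and it was not used here. A permutation test of 2 against 2 cards can give no two-sided p under 0.333. Scripts were tested on simulated data. The number of cards limits the precision, and no counts lie behind a Ct. Named assays were the pair, the seed-related list, the 5 assays most like each member, metabolic miRNAs called at 4 weeks with miR-33 and miR-378, and reference candidates. Alternatives changed the centring, the filters, the model and the cards. The members and lists were chosen with earlier results of these data known. Single-RNA references were added after seeing the data.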

Additional observations from a re-analysis of the deposited data

How the results depend on the processing

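The fall of miR-107 at 4 weeks kept its direction and call under the 11 planned settings other than leaving out a card (-3.46 to -1.97, adjusted p from 0.00179 to 0.0183). Under quantile normalization miR-103 passed at 1 and 4 weeks (-1.02 at both) and over all CCl4 groups (-0.86), and miR-107 at 1 week did not (-1.70). With the card median miR-103 passed over all CCl4 groups (-0.96), and its change from 1 to 4 weeks was -0.0325. With no normalization miR-107 did not pass at 1 week (-2.03) or over all CCl4 groups (-2.25), and the 1 to 4 week change of miR-103 was -0.29. With undetermined values at cycle 40, miR-107 at 1 week did not pass (-1.52). The endogenous controls gave miR-107 -0.77 at 8 weeks and -0.20 from 1 to 4 weeks. The cause was not tested.

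Of the single references, tried after seeing the data, U6 gave miR-103 values of -3.29, 0.64 and 0.64 at 1, 4 and 8 weeks and 3.92 for 4 and for 8 weeks against 1 week, and gave miR-107 -3.90, -1.10 and -0.12 in that order and 2.79 and 3.78 against 1 week. miR-191 gave miR-103 -2.38, -0.045 and 0.015 at 1, 4 and 8 weeks, and 2.33 and 2.40 for 4 and 8 against 1 week, and miR-107 -2.99, -1.78 and -0.74, and 1.21 and 2.25 for the latter pair. snoRNA202 gave miR-103 0.48 at 1 week and -0.96 and -0.74 for 4 and 8 against 1 week, and gave miR-107 -0.13 at 1 week, -2.08 and -0.89 for that pair and -1.12 over all CCl4 groups. snoRNA135 gave miR-107 -1.25 at 1 week (not passing) and miR-103 -0.20 from 1 to 4 weeks.

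Leaving out each card gave miR-107 -2.20 to -0.85 at 1 week, -1.76 to -0.41 from 1 to 4 weeks, -0.38 to 0.96 from 1 to 8 weeks and -2.01 to -1.56 over all CCl4 groups. It gave miR-103 -0.71 to -0.24 at 8 weeks, -0.23 to 0.31 from 1 to 4 weeks, 0.16 to 0.71 from 1 to 8 weeks and 0.15 to 0.63 from 4 to 8 weeks, and the within-card difference -1.31 to -0.84. The labels do not say whether the same replicate number pairs cards of different groups. Between groups, replicate differences correlated from -0.50 to 0.43 over 6 pairs of groups, which does not settle it. With the replicate block, no call of either member changed (miR-107 at 4 weeks, adjusted p = 0.00847), the within-card difference had an exact p of 0.25, and calls between 4 and 8 weeks went from 2 to 0 (25 at unadjusted p under 0.05).

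Counts of assays called also moved. With no normalization, 5 were called at 1 week (54 as reported), 10 at 4 weeks (50), 1 at 8 weeks (5), 29 for 4 against 1 week (78), 8 for 8 against 1 week (40) and 2 over all CCl4 groups (48). With U6 alone these were 126, 82, 40, 150, 158 and 13. The 8-week count ran from 0 to 12 over the 11 planned settings (42 at unadjusted p under 0.05 for the 0 with undetermined values at cycle 40, 32 for the 0 with only the groups compared). Without untreated replicate 1, 15 were called at 1 week (3 lower), 26 at 4 weeks, 1 at 8 weeks and 14 over all CCl4 groups. Without untreated replicate 2, 22 were called at 4 weeks, 1 at 8 weeks and 7 over all CCl4 groups (1 lower). At 8 weeks 0 were called without either 8-week card (45 and 26 at unadjusted p under 0.05) and 2 without either 1-week card. Over all CCl4 groups 31 and 29 were called without 1-week replicates 1 and 2, and 24 when centred on every determined assay. For 8 against 1 week it was 20 with quantile normalization and 15 with undetermined values at cycle 40, and for 8 against 4 weeks 0 to 9 over the planned settings and 0 to 1 without a card. For 1 week the count was 28 without 1-week replicate 1 and 23 without replicate 2, and in the same order it was 41 and 37 for 4 against 1 week and 9 and 4 for 8 against 1 week. Without 4 weeks replicate 2 it was 32 at 4 weeks and 30 for 4 against 1 week, and without 8 weeks replicate 2 it was 4 for 8 against 1 week. Precision was limited by 2 cards a group.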

Other observations

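Ct values close to a whole cycle, with a decimal part of at least 0.90 or below 0.05, made up 54.9% of the 193 determined assays on the 4 weeks replicate 2 card (106 of 193). On the other 7 cards they made up 19.2 to 38.4%, and an even spread of decimals would give 15%. Of the 16 Ct values of miR-103 and miR-107, 4 were of this kind, among them the 34.00 of miR-107 on the 4 weeks replicate 2 card. This was noticed after seeing the data. Without that card the 4-week log2 difference of miR-107 was -2.73 and that of miR-103 was -0.72.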
